A study of Mus musculus with 10 samples.

Results

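A group of 10 genes of the Nodal, activin, TGF-beta and BMP signalling family was followed across hepatocyte-like cells, adult hepatocytes and embryonic stem cells of the mouse. They were the ligand genes Nodal, Inhba, Tgfb1, Tgfb2, Tgfb3, Bmp2 and Bmp4, the Nodal co-receptor gene Tdgf1 and the Nodal inhibitor genes Lefty1 and Lefty2. The members were taken as a list of names, and each was read from the transcript cluster (the set of probes for 1 transcription unit) that the platform annotation assigns to that symbol alone. All 10 of 10 were measured, each by 1 cluster, out of 22180 genes with such a cluster. In RefSeq's annotation of GRCm38.p6 they lie on chromosomes 10 (Nodal), 9 (Tdgf1), 1 (Lefty1, Lefty2 and Tgfb2), 13 (Inhba), 7 (Tgfb1), 12 (Tgfb3), 2 (Bmp2) and 14 (Bmp4), and all are protein-coding.

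Ligands of this family are secreted dimers that bring type I and type II serine/threonine kinase receptors together. Nodal, activins and TGF-betas pass their signal to SMAD2 and SMAD3, BMPs pass theirs to SMAD1, SMAD5 and SMAD9, and both branches share SMAD4. Nodal signals with the help of the membrane-bound co-receptor Tdgf1, also called Cripto, and switches on its own inhibitors, the Lefty genes. In the embryo Nodal drives the formation of endoderm, BMP4 from mesenchyme supports the first hepatic cells, and in adult liver TGF-beta is known for activating stellate cells and BMPs for inducing hepcidin.

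RNA of 3 samples of hepatocyte-like cells, 3 of adult hepatocytes and 4 of undifferentiated embryonic stem cells was hybridised to 10 arrays. The hepatocyte-like cells (labelled ES_HLC) had been differentiated from mouse embryonic stem cells, the adult hepatocytes (Ad_Hep) came from liver, and the stem cells (mESC) are the starting point. All 10 carry a strain label that combines C.FVB, the transgene Tg(CAG-luc, GFP)L2G85Chco and the laboratory code FathJ, and in this line the broadly active CAG promoter drives luciferase and green fluorescent protein, and all carry the same limit on passage number. The labels used here give neither the differentiation protocol nor its length, nor the age of the animals or whether they were pooled. Replicates are called biological, with nothing on separate cultures or animals, so the p-values cover only the spread seen among these arrays, which may be technical. Levels are the deposited log2 values, and a step of 1 is a doubling. Array medians lay between 4.91 and 5.07, and a level under 5.5 is called dim here. A dim level may lie in the background of the array, which could not be measured here, so a difference from one is a difference between array readings and its true fold is unknown.

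Marker genes went with the labels of the stem cells and of the adult hepatocytes, and less so with that of the hepatocyte-like cells. The mean level of 10 hepatocyte markers was 5.59, 6.21 and 7.18 in hepatocyte-like replicates 1, 2 and 3, 12.09 to 12.26 in adult hepatocytes and 4.84 to 5.09 in stem cells. In hepatocyte-like cells all 10 of these markers were below their adult level, and 6 of 6 fetal hepatic markers were higher than in stem cells. Of the 6, 3 (Krt8, Krt18 and Prox1) were also higher in adult hepatocytes than in stem cells. Against adult hepatocytes 5 of the 6 were higher in hepatocyte-like cells (Krt18 by 1.37, or 0.94 without replicate 3), and Prox1 was lower (5.81 against 9.85). By the test described below 16.0% of all genes differed between hepatocyte-like and stem cells, and 23.0% between the 2 hepatic kinds. The mean of 8 stem cell markers was 4.95 to 5.17 in hepatocyte-like cells, 4.54 to 4.91 in adult hepatocytes and 8.85 to 9.10 in stem cells. Hepatocyte-like replicate 3 stood apart, with Alb at 10.80 against 4.85 and 5.14 in replicates 1 and 2 and Nanog at 7.12 against 5.08 and 5.09. Some results on hepatocyte-like cells are therefore also given without it. Values printed without such a note can move as well when it is left out. Markers of other liver cells were read in adult hepatocytes too. Of all 22180 genes, 13247 had a mean of 5.5 or above in at least 1 cell kind. In adult hepatocytes 8 of 8 endothelial and 6 of 8 macrophage markers were at 5.5 or above. The counts were 3 and 3 in hepatocyte-like cells and 1 and 2 in stem cells. In each list 1 marker read higher in stem cells than in adult hepatocytes, Pecam1 (7.29 in adult hepatocytes, 9.52 in stem cells) and Cd68 (7.06 and 9.53). The endothelial list averaged 5.57 to 5.98 in hepatocyte-like cells, 8.01 to 8.20 in adult hepatocytes and 5.19 to 5.61 in stem cells, and the macrophage list 4.88 to 5.12, 6.49 to 6.72 and 5.01 to 5.16 in the same order. Extraembryonic endoderm markers averaged 8.16 to 8.67 in hepatocyte-like cells, 6.53 to 6.75 in adult hepatocytes and 6.36 to 6.47 in stem cells. In such bulk samples, fewer cells of a type and less RNA per cell cannot be told apart.

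**Figure D1:**
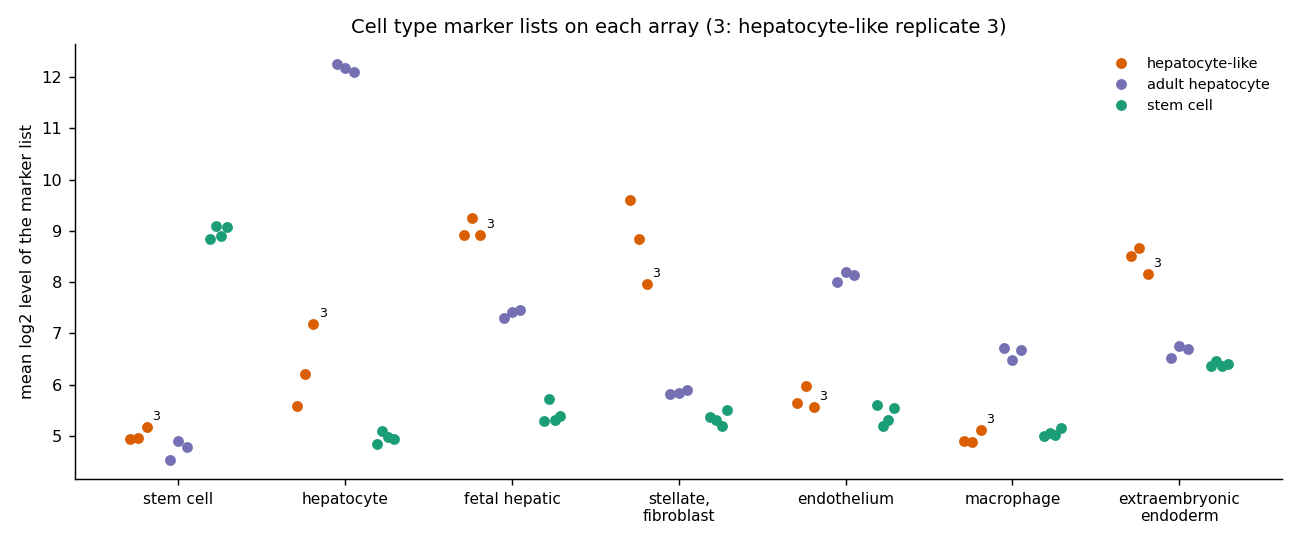
Mean log2 level (vertical axis) of 7 lists of cell type markers (horizontal axis) on each of the 10 arrays, 1 point per array, coloured by cell kind. Hepatocyte-like replicate 3, marked 3, has the highest hepatocyte marker mean of its group (7.18) and the lowest stellate and fibroblast mean (7.96).

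The promoters of 4 members are shown because these genes mark the opposite ends of the changes described below: Tdgf1 and Nodal were high in stem cells, Tgfb1 and Tgfb2 in hepatocyte-like cells. Each is the stretch of 300 bases from 250 before to 50 after the start site in RefSeq (GRCm38.p6), where 6 of the 10 members had an entry, written 5′ to 3′ on the gene's own strand. Capitals mark every match, on either strand, to 8 motifs: the SMAD box (CAGAC), a FOXH1 site (AATCCACA or AATACACA), the TATA box (TATAAA), the CCAAT box (CCAAT), the SP1 GC box (GGGCGG), an AP-1 site (TGANTCA), a cAMP response element (TGACGTCA) and an E-box (CACGTG). No capitals from different motifs overlap.
Tdgf1, chr9:110946109-110946408, minus strand: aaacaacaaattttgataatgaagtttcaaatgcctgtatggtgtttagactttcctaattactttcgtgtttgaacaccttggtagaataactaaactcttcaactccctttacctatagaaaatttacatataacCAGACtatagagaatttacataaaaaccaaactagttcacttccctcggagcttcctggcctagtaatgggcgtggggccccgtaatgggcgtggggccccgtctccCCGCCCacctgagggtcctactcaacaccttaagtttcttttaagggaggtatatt
Nodal, chr10:61417722-61418021, plus strand: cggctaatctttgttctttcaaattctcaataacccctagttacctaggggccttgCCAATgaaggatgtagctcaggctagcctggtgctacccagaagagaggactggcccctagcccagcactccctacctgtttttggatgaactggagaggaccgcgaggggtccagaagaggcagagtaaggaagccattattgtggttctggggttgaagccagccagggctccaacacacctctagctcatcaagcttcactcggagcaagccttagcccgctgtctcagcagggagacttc
Tgfb1, chr7:25686752-25687051, plus strand: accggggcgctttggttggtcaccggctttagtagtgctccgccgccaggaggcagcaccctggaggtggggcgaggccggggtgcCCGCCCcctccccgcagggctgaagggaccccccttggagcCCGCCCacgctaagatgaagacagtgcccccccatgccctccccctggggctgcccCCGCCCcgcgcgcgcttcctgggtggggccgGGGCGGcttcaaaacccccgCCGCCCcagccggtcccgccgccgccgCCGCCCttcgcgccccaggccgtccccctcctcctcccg
Tgfb2, chr1:186705940-186706239, minus strand: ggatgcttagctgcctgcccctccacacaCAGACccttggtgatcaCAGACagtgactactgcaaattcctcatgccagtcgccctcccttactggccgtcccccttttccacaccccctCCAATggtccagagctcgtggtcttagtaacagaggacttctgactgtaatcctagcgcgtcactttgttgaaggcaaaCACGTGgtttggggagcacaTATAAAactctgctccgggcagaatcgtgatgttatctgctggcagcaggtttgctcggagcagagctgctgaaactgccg
The Tgfb1 promoter held 77.0% G and C and 6 SP1 GC boxes, with no TATA box. The Tgfb2 promoter held 54.3% G and C, a TATA box whose first base lies at -31 from the start site, 2 SMAD boxes, a CCAAT box and an E-box. In RefSeq the Tgfb2 gene runs from 186622787 to 186709697, so this stretch lies inside the gene and its start site is an internal one. The Nodal promoter (54.0% G and C) matched only the CCAAT box and the Tdgf1 promoter (41.7%) a SMAD box and an SP1 GC box. Among all 32817 promoters of this length, the median was 52.7% G and C, 49.6% held a SMAD box, 37.4% a CCAAT box, 35.6% an SP1 GC box, 13.6% a TATA box, 7.81% an AP-1 site, 7.15% an E-box, 1.83% a FOXH1 site and 1.79% a cAMP response element. A match describes these letters and is no evidence of binding.

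The 10 members followed 4 patterns. The Nodal group (Nodal, Tdgf1, Lefty1 and Lefty2) was high in stem cells and low in both hepatic kinds. The TGF-beta genes were high in hepatocyte-like cells and low in both others. Bmp4 was highest in hepatocyte-like cells and lowest in adult hepatocytes. Inhba and Bmp2 were higher in both hepatic kinds than in stem cells. Differences are tested with limma, a linear model fitted to all genes, and a gene passed the test, or was called, when its adjusted p over all genes was under 0.05 and it was at least 1 log2 unit higher or lower.

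**Figure D2:**
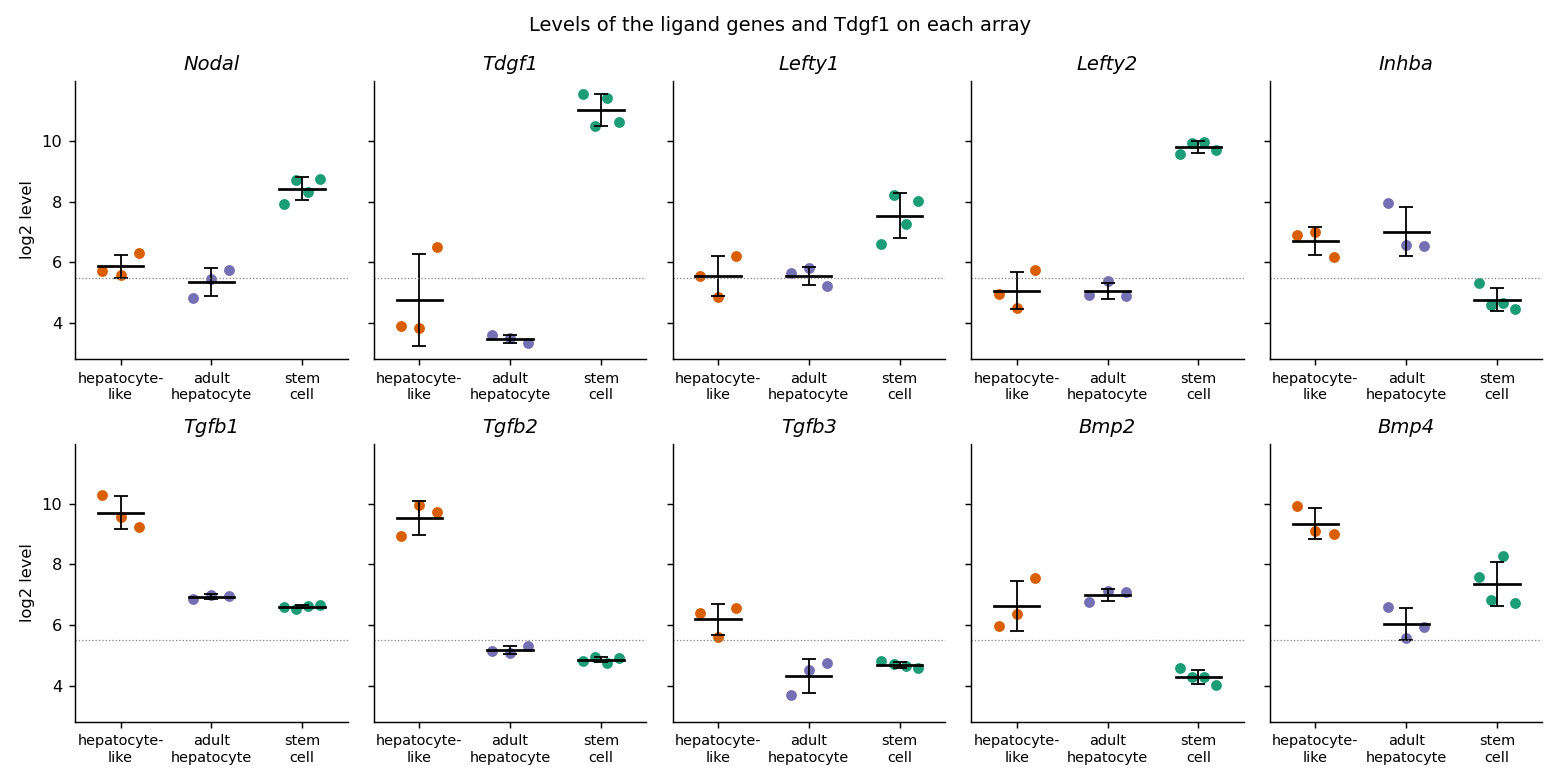
Log2 level of each gene on each array, 1 point per array, with the group mean (bar) and SD (whiskers); the dotted line is the level of 5.5 under which a gene is called dim. Nodal, Tdgf1, Lefty1 and Lefty2 are highest on the 4 stem cell arrays, and Tgfb1, Tgfb2, Tgfb3 and Bmp4 on the 3 hepatocyte-like arrays.

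Nodal, the ligand that induces mesendoderm in the early embryo, read 5.72, 5.59 and 6.30 in hepatocyte-like cells, 4.84, 5.46 and 5.76 in adult hepatocytes and 7.93, 8.71, 8.33 and 8.74 in stem cells. Every hepatic array lay below every stem cell array, and the 2 hepatic kinds overlapped. Nodal fell by 2.56 ± 0.27 (log2 difference ± SE; 5.89-fold) in hepatocyte-like cells against stem cells (limma, adjusted p = 1.37e-05). In adult hepatocytes it fell by 3.08 ± 0.27 against stem cells (limma, adjusted p = 8.15e-07).

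Tdgf1, a co-receptor that helps Nodal to signal through activin receptors, had the widest span of the 10. It read 3.90, 3.83 and 6.50 in hepatocyte-like cells, 3.61, 3.50 and 3.33 in adult hepatocytes and 11.54, 10.50, 11.43 and 10.62 in stem cells. Hepatocyte-like replicate 3 was thus well above the other hepatic arrays and still far below the lowest stem cell array. Against stem cells Tdgf1 fell by 6.28 ± 0.53 in hepatocyte-like cells (limma, adjusted p = 2.24e-06) and by 7.54 ± 0.53 in adult hepatocytes (limma, adjusted p = 1.06e-07). Without hepatocyte-like replicate 3 its difference between hepatocyte-like and stem cells was -7.16. Its values in both hepatic kinds were dim in all arrays but that one.

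Lefty1 and Lefty2, secreted inhibitors that bind Nodal and its co-receptor, lie near each other on chromosome 1. They are closely related genes, and whether the probes of one read the other was not tested. Lefty2 read 4.97, 4.51 and 5.74 in hepatocyte-like cells, 4.94, 5.38 and 4.88 in adult hepatocytes and 9.58, 9.94, 9.97 and 9.69 in stem cells. The 4 stem cell arrays lay close together and far above all 6 others. Lefty2 fell by 4.72 ± 0.25 in hepatocyte-like cells and by 4.73 ± 0.25 in adult hepatocytes, each against stem cells (limma, adjusted p = 6.06e-08 and 7.75e-09). Lefty1 moved less and was more scattered: 5.55, 4.87 and 6.21 in hepatocyte-like cells, 5.66, 5.80 and 5.22 in adult hepatocytes and 6.61, 8.22, 7.27 and 8.01 in stem cells. The lowest stem cell array, at 6.61, was just above the highest hepatic one, at 6.21. Lefty1 fell by 1.98 ± 0.38 in hepatocyte-like cells and by 1.97 ± 0.38 in adult hepatocytes (limma, adjusted p = 0.00152 and 0.000862).

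The 3 TGF-beta genes encode ligands made as latent precursors. Tgfb1 read 10.30, 9.57 and 9.24 in hepatocyte-like cells, 6.86, 7.0 and 6.96 in adult hepatocytes and 6.61, 6.54, 6.64 and 6.65 in stem cells. Adult hepatocytes and stem cells held nearly constant levels, and the hepatocyte-like arrays stood more than 2 units above all 7 of them. Tgfb1 rose by 3.09 ± 0.21 over stem cells (8.54-fold, limma, adjusted p = 4.04e-07). Over adult hepatocytes its rise was 2.76 ± 0.23 (6.79-fold, adjusted p = 6.27e-07). Adult hepatocytes lay above stem cells on every array, but the difference of 0.33 ± 0.21 did not pass the test (adjusted p = 0.248, 95% interval -0.13 to 0.79). With cyclic loess that difference was 0.73 (limma, adjusted p = 0.025), still under the limit on size. The mean of 8 stellate and fibroblast markers was 7.96 to 9.61 in hepatocyte-like cells, 5.81 to 5.89 in adult hepatocytes and 5.20 to 5.51 in stem cells. Of the 8, 5 rose in hepatocyte-like cells against stem cells, where 8.61% of all genes did, and Des, Pdgfrb and Lrat did not pass. Lrat, the retinol-esterifying enzyme of stellate cells, went against the mean, at 4.36 in hepatocyte-like cells, 7.92 in adult hepatocytes and 4.34 in stem cells. The part of such cells in the levels of the TGF-beta genes and their targets was not tested.

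Tgfb2, the ligand of this group best known from mesenchyme and from epithelial to mesenchymal transition, read 8.92, 9.97 and 9.71 in hepatocyte-like cells. In adult hepatocytes it read 5.13, 5.07 and 5.32, and in stem cells 4.81, 4.96, 4.75 and 4.91, all dim. It rose by 4.67 ± 0.22 over stem cells (limma, adjusted p = 1.92e-08) and by 4.36 ± 0.23 over adult hepatocytes (adjusted p = 9.05e-09). Tgfb3 rose less. It read 6.40, 5.60 and 6.56 in hepatocyte-like cells, 3.69, 4.52 and 4.76 in adult hepatocytes and 4.82, 4.71, 4.65 and 4.59 in stem cells. The rise was 1.49 ± 0.27 over stem cells (adjusted p = 0.000975) and 1.86 ± 0.29 over adult hepatocytes (adjusted p = 0.000197). Adult hepatocytes and stem cells overlapped for Tgfb3 and differed by -0.37 ± 0.27 (adjusted p = 0.312, 95% interval -0.95 to 0.21), and for Tgfb2 they differed by 0.31 ± 0.22 (adjusted p = 0.289, 95% interval -0.16 to 0.79).

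Bmp4, which acts in mesoderm and in the specification of liver and which helps to hold mouse stem cells undifferentiated, read 9.92, 9.10 and 8.99 in hepatocyte-like cells. Adult hepatocytes read 6.59, 5.57 and 5.93 and stem cells 7.59, 6.84, 8.27 and 6.73. It was the only member that passed the test in all 3 comparisons, with hepatocyte-like cells on top, stem cells in the middle and adult hepatocytes at the bottom. The gap between the lowest stem cell and the highest adult array was small, at 6.73 against 6.59. Bmp4 rose by 1.98 ± 0.37 over stem cells (3.95-fold, limma, adjusted p = 0.00135). Its rise over adult hepatocytes was 3.31 ± 0.40 (9.90-fold, adjusted p = 2.35e-05). In adult hepatocytes it fell by 1.33 ± 0.37 against stem cells (adjusted p = 0.0113). That call was lost without adult hepatocyte replicate 2 (-1.10, adjusted p = 0.0632) and with cyclic loess between arrays (-0.93, adjusted p = 0.0675), and its adjusted p ran between 0.00219 and 0.0675 across the alternatives.

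Bmp2, which in liver is known as an endothelial inducer of hepcidin, read 5.98, 6.35 and 7.54 in hepatocyte-like cells. In adult hepatocytes it read 6.76, 7.12 and 7.09, and in stem cells 4.58, 4.28, 4.30 and 4.02. All 6 hepatic arrays lay above all 4 of the stem cells, where it was dim. Bmp2 rose by 2.33 ± 0.30 in hepatocyte-like cells (limma, adjusted p = 8.10e-05) and by 2.69 ± 0.30 in adult hepatocytes (adjusted p = 8.34e-06). The rise in hepatocyte-like cells was 1.87 without replicate 3 (adjusted p = 3.66e-05). In adult hepatocytes against stem cells 7 of the 8 endothelial markers rose like Bmp2, and 1, Pecam1, fell (-2.23 ± 0.19). The share of this list that passed was 100%, against 26.6% of all genes, and the part of endothelial cells in Bmp2 was not tested. In hepatocyte-like cells against stem cells 2 of 8 endothelial markers rose, Kdr by 2.63 ± 0.24 and Cdh5 by 1.72 ± 0.25, and 1 fell, Pecam1 (-3.07 ± 0.19). That is 37.5% of the list, against 16.0% of all genes, and the part of endothelial cells in Bmp2 was not tested there either.

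Inhba encodes the beta A subunit that pairs to form activin A. It read 6.90, 7.0 and 6.17 in hepatocyte-like cells, 7.95, 6.56 and 6.53 in adult hepatocytes and 5.33, 4.61, 4.65 and 4.47 in stem cells. The hepatic arrays lay above all stem cell arrays, and adult replicate 1 was the highest of all. Inhba rose by 1.92 ± 0.34 in hepatocyte-like cells (limma, adjusted p = 0.000951) and by 2.24 ± 0.34 in adult hepatocytes (adjusted p = 0.000137). Without adult replicate 1 the adult rise was 1.78.

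**Figure D3:**
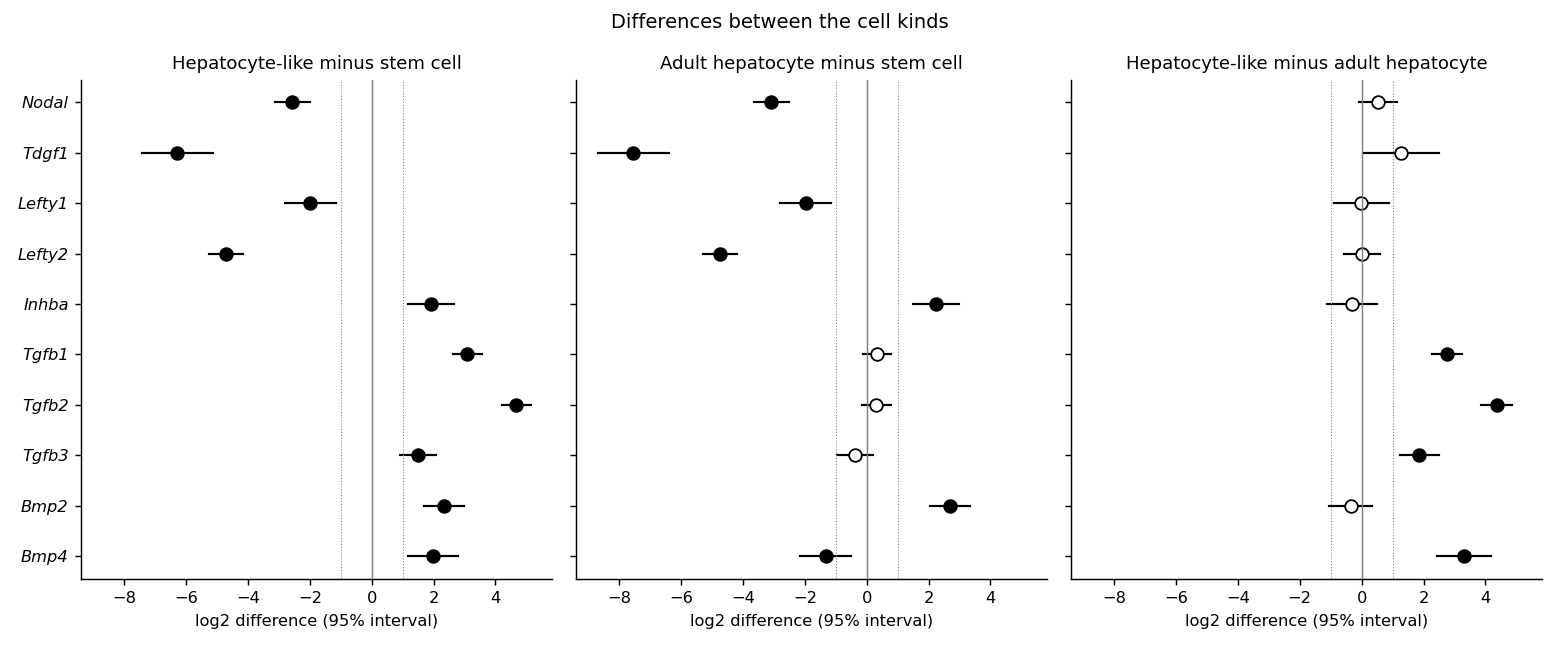
Log2 difference of each gene in the 3 comparisons, with its 95% interval from limma; filled points passed an adjusted p of 0.05 and a difference of at least 1 either way (dotted lines), open points did not. All 10 points are filled for hepatocyte-like against stem cells, and 4 are filled between the 2 hepatic kinds.

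Counted together, all 10 members passed the test between hepatocyte-like and stem cells, 6 higher and 4 lower, where 16.0% of all 22180 genes did (8.61% higher, 7.35% lower). Arrays of the 2 kinds did not overlap for 10 of the 10, against 34.6% of all genes, and their median difference was 1.71 against -0.01 over all genes. The count stayed at 10 without hepatocyte-like replicate 3. Between adult hepatocytes and stem cells 7 passed, 2 higher and 5 lower, where 26.6% of all genes did (11.0% higher, 15.6% lower). Their arrays did not overlap for 9 members, against 46.9% of all genes, and the median difference was -0.85 against 0.05. With cyclic loess the split of all called genes in that comparison turned from 2443 higher and 3450 lower to 2975 higher and 2578 lower.

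Between hepatocyte-like cells and adult hepatocytes 4 members passed, all higher (Tgfb1, Tgfb2, Tgfb3 and Bmp4), where 23.0% of all genes did (13.9% higher, 9.12% lower). The arrays did not overlap for 5, against 45.1% of all genes, so on that measure the members were near the background. Their median difference was 0.89 against -0.04, and with cyclic loess the split of all called genes turned from 3083 higher and 2023 lower to 2322 higher and 2413 lower. For the 6 members that did not pass, the intervals say how large a difference could have been missed. The difference was 0.52 ± 0.28 for Nodal (95% interval -0.10 to 1.13), -0.01 ± 0.41 for Lefty1 (-0.89 to 0.87) and 0.01 ± 0.27 for Lefty2 (-0.58 to 0.60). For Inhba it was -0.32 ± 0.37 (-1.12 to 0.48) and for Bmp2 -0.36 ± 0.32 (-1.06 to 0.34). Without hepatocyte-like replicate 3 the difference in Bmp2 was -0.82 (limma, adjusted p = 0.0105), still under the limit of 1 on size. For Tdgf1 it was 1.27 ± 0.56 (0.04 to 2.49, adjusted p = 0.103), and 0.39 without hepatocyte-like replicate 3. Leaving out hepatocyte-like replicate 1 or 2 instead brought Tdgf1 past the test, at 1.69 and 1.72 (limma, adjusted p = 0.0436 and 0.0378). The comparisons share arrays, so their values are not independent of each other.

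Other ligands of the family were compared next, from a list of 24 of which 22 were measured. Between hepatocyte-like and stem cells 3 rose and 2 fell, which is 22.7% of the list against 16.0% of all genes. Gdf3, a Nodal-related ligand of pluripotent cells, fell by 4.76 ± 0.20 and the ligand gene Bmp7 by 1.18 ± 0.37 (limma, adjusted p = 1.14e-08 and 0.0287), while Bmp5 rose by 1.73 ± 0.28, Gdf11 by 1.52 ± 0.29 and Gdf6 by 1.24 ± 0.20. In adult hepatocytes 6 rose and 2 fell against stem cells (36.4%, against 26.6% of all genes), and between the 2 hepatic kinds 31.8% passed, against 23.0%. The liver activin subunit genes Inhbc and Inhbe rose there by 4.83 ± 0.15 and 4.61 ± 0.26, and Bmp5 and Bmp10 by 2.06 ± 0.28 and 1.82 ± 0.22, while Gdf3 fell by 4.84 ± 0.20 and Bmp7 by 2.42 ± 0.37. Inhbc read 4.50, 4.60 and 4.51 in hepatocyte-like cells, 9.43, 9.21 and 9.0 in adult hepatocytes and 4.47, 4.38, 4.32 and 4.35 in stem cells. Between the 2 hepatic kinds Inhba did not pass the test, and Inhbc and Inhbe were lower in hepatocyte-like than in adult cells (-4.67 ± 0.16 and -4.80 ± 0.27, limma, adjusted p = 1.23e-10 and 1.64e-08). The circulating ligands Bmp10 and Gdf2 were lower as well (-1.74 ± 0.23 and -1.25 ± 0.23), and Gdf11 (2.24 ± 0.31), Gdf6 (1.13 ± 0.21) and Bmp7 (1.24 ± 0.39) were higher. Bmp7 lost that call with cyclic loess (0.93), after a second quantile normalization (1.07, adjusted p = 0.0592, limma) and without hepatocyte-like replicate 3 (0.99).

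Of 16 measured receptors and co-receptors 7 rose and 1 fell in hepatocyte-like cells against stem cells, with a median difference of 0.63 against -0.01 over all genes. That is 50% of the list, against 16.0% of all genes. With median centring 5 of the 7 kept the call, and Acvr1 and Acvr2a were at 0.99 and 0.97. The type II BMP receptor Bmpr2 rose by 3.00 ± 0.20, betaglycan Tgfbr3, which presents TGF-beta to its receptors, by 1.86 ± 0.22, and the TGF-beta receptors Tgfbr1 and Tgfbr2 by 1.67 ± 0.30 and 1.61 ± 0.23. The co-receptor endoglin, Eng, fell by 3.76 ± 0.27 (limma, adjusted p = 5.20e-07). In adult hepatocytes 4 receptors rose and 1 fell against stem cells, a share of 31.2% that lies near the 26.6% of all genes. Hjv, the BMP co-receptor that hepatocytes need for hepcidin, rose by 3.64 ± 0.19, the activin receptor Acvr2a by 1.91 ± 0.18, Bmpr2 by 1.64 ± 0.20 and Tgfbr2 by 1.14 ± 0.23, and the type I receptor Acvr1b fell by 1.05 ± 0.20, which did not pass after a second quantile normalization or cyclic loess. Hepatocyte-like cells were below adult hepatocytes in Hjv (-3.99 ± 0.20) and Eng (-3.33 ± 0.28), above them in Rgmb (1.47 ± 0.18), Bmpr2 (1.36 ± 0.22) and Tgfbr3 (1.35 ± 0.23), and 11 of the 16 did not pass. The share that passed was again 31.2%, against 23.0% of all genes. Bmpr2 lost that call with cyclic loess (0.91).

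Secreted antagonists and latency proteins rose in 9 of 20 and fell in 0 in hepatocyte-like cells against stem cells (limma), while at an unadjusted p under 0.05 and with no limit on size 14 were higher and 2 lower. They included Cd109, which binds TGF-beta at the cell surface (4.12 ± 0.43), the matrix proteoglycan decorin, Dcn (3.26 ± 0.42), the latency protein Ltbp1 (2.69 ± 0.25) and the BMP modulator Bmper (2.64 ± 0.25). Dcn read 7.95, 7.61 and 5.85 in hepatocyte-like cells, 9.59, 8.61 and 8.89 in adult hepatocytes and 3.95, 4.09, 4.02 and 3.43 in stem cells. Over adult hepatocytes 6 rose, with Fstl1 at 5.0 ± 0.20, Cd109 at 4.91 ± 0.46, Tmeff1, which binds the Nodal co-receptor, at 3.98 ± 0.23 and Ltbp1 at 3.21 ± 0.27, and Dcn alone fell (-1.90 ± 0.45). In adult hepatocytes against stem cells 4 rose, Dcn (5.16 ± 0.42), Bmper (2.12 ± 0.25), Lrrc32, which holds latent TGF-beta at the cell surface (1.65 ± 0.33), and Twsg1 (1.22 ± 0.19), and 3 fell, Tmeff1 (-3.33 ± 0.21), Fstl1 (-2.67 ± 0.19) and Ltbp4 (-1.30 ± 0.32), which lost the call with cyclic loess (-0.92). These shares were 45% over stem cells, 35% over adult hepatocytes and 35% in adult hepatocytes over stem cells, against 16.0%, 23.0% and 26.6% of all genes.

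Of 10 proteases that process precursors, latent complexes or antagonists, 6 rose and 1 fell in hepatocyte-like cells against stem cells, with a median difference of 1.64. Bmp1, a metalloprotease that cuts the antagonist chordin and is no BMP ligand, rose by 5.21 ± 0.19, the gelatinase Mmp2 by 4.37 ± 0.31, the membrane protease Mmp14 by 3.76 ± 0.26 and the precursor-cleaving convertase Furin by 2.34 ± 0.35. Pcsk6, a convertase known to process Nodal, fell by 1.77 ± 0.38 (limma, adjusted p = 0.00320). In adult hepatocytes 5 rose and 2 fell, with Bmp1 at 4.12 ± 0.19, Furin at 2.57 ± 0.35, Mmp14 at 2.35 ± 0.26 and Pcsk5 at 2.16 ± 0.20, and with Mmp2 at -1.30 ± 0.31 (-0.93 with cyclic loess, no longer a call) and Tll1 at -1.13 ± 0.18. Between hepatocyte-like cells and adult hepatocytes 5 rose and 1 fell, led by Mmp2 (5.68 ± 0.33), Mmp9 (1.75 ± 0.31), Mmp14 (1.41 ± 0.28) and Tll1 (1.31 ± 0.20), with Pcsk6 lower (-2.38 ± 0.40). Bmp1 was higher as well (1.08) but lost that call with cyclic loess (0.71) and without hepatocyte-like replicate 3 (0.96). In the order given, the share of this list that passed was 70%, 70% and 60%, against 16.0%, 26.6% and 23.0% of all genes.

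SMADs, their partners and inhibitors rose in 8 of 17 and fell in 1 in hepatocyte-like cells against stem cells. Smad6, which blocks BMP signalling, rose by 2.47 ± 0.19, the TGF-beta effector Smad3 by 2.45 ± 0.24, the decoy receptor Bambi by 1.97 ± 0.19 and the SMAD repressor Skil by 1.96 ± 0.28. The 1 that fell was Foxh1, the DNA-binding partner of SMAD2 in Nodal signalling (-2.81 ± 0.31, limma, adjusted p = 2.00e-05). Foxh1 read 5.71, 5.03 and 6.60 in hepatocyte-like cells, 5.5, 5.23 and 5.37 in adult hepatocytes and 8.13, 8.71, 8.56 and 8.98 in stem cells. As for Nodal, every hepatic array lay below every stem cell array. Adult hepatocytes had 1 higher, Smad9 (2.62 ± 0.23), and 6 lower than stem cells, including Foxh1 (-3.23 ± 0.31), Tgif1 (-1.49 ± 0.24), Pmepa1 (-1.30 ± 0.24) and Tgif2 (-1.20 ± 0.19). With cyclic loess 2 of the 6 kept the call, and Pmepa1 and Tgif2 were at -0.95 and -0.84. Against adult hepatocytes 9 rose in hepatocyte-like cells, led by Skil (3.00 ± 0.29), Bambi (2.57 ± 0.21), Pmepa1 (2.49 ± 0.26) and Smurf1 (2.20 ± 0.16), and Smad9 fell by 1.84 ± 0.25. Of those 9, 6 kept the call with cyclic loess. The share of the list that passed was 52.9% in hepatocyte-like against stem cells, 41.2% in adult hepatocytes against stem cells and 58.8% between the 2 hepatic kinds. Over all genes it was 16.0%, 26.6% and 23.0%.

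Leaving out hepatocyte-like replicate 3 moved the counts of each list by at most 1 in either direction. Besides the genes named with their lists, Smad5 then lost its call against stem cells (0.81). Bmp6 (1.4), Acvrl1 (1.12), Fstl3 (1.0) and Fst (-1.05) gained a call there. Between the 2 hepatic kinds Smad2 lost its call (0.92) and Tgfbr1 gained one (1.24). Genes known to follow each ligand were taken as 3 lists. The TGF-beta list shares Smad7, Skil and Pmepa1 with the SMAD list, and the BMP list shares Smad6, Smad7, Smad9 and Bambi with it. The shares of these lists that passed are therefore not independent of each other. Of 12 measured TGF-beta targets, 8 rose and 0 fell in hepatocyte-like cells against stem cells, and 10 rose and 0 fell against adult hepatocytes, with median differences of 2.27 and 2.86 (against -0.01 and -0.04 over all genes). At an unadjusted p under 0.05 the counts were 10 higher and 0 lower in each of these comparisons (limma). Acta2, smooth muscle actin, rose by 6.32 ± 0.24 and 5.76 ± 0.26, and the collagen gene Col1a1 by 5.21 ± 0.50 and 5.35 ± 0.53. Without hepatocyte-like replicate 3 the rises of Col1a1 were 6.06 and 6.2. Tgfbi rose by 4.31 ± 0.30 and Tagln by 4.18 ± 0.32 over stem cells, while Timp1 (4.84 ± 0.30) and Ccn2 (4.07 ± 0.42) rose over adult hepatocytes. The counts were the same without hepatocyte-like replicate 3. The list shares Acta2, Col1a1 and Col1a2 with the stellate and fibroblast markers, whose mean was 9.61, 8.85 and 7.96 on hepatocyte-like arrays 1, 2 and 3. In hepatocyte-like cells 7 of 8 of these markers were at 5.5 or above, against 5 in adult hepatocytes and 4 in stem cells. Tgfb1, at 10.30, 9.57 and 9.24, and Bmp4, at 9.92, 9.10 and 8.99, were highest on the array where that marker mean was highest. Tgfb2, at 8.92, 9.97 and 9.71, and Tgfb3, at 6.40, 5.60 and 6.56, were not. These orders were seen with the values in view and were not tested. In adult hepatocytes against stem cells 1 target rose, Tgfbi (1.84 ± 0.30), and 4 fell, Timp1 (-4.42 ± 0.28), Ccn2 (-1.48 ± 0.40), Pmepa1 and Skil (-1.04 ± 0.28). With cyclic loess only Timp1 of the 4 kept the call, and Ccn2 and Skil had an adjusted p of 0.0585 and 0.0571 (limma). The share of TGF-beta targets that passed was 66.7% in hepatocyte-like against stem cells, 83.3% between the 2 hepatic kinds and 41.7% in adult hepatocytes against stem cells. Over all genes it was 16.0%, 23.0% and 26.6%.

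Of 11 measured BMP targets 8 rose and 1 fell in hepatocyte-like cells against stem cells, with a median difference of 1.97, and 6 rose and 0 fell in adult hepatocytes, with a median of 1.87 (at an unadjusted p under 0.05, 6 higher and 2 lower, limma). The inhibitors of differentiation Id2 and Id1, direct targets of BMP SMADs, rose by 3.90 ± 0.23 and 3.01 ± 0.22 in hepatocyte-like cells, while Id4 fell by 1.02 ± 0.24 (-0.99 with cyclic loess, no longer a call). Id2 read 9.35, 10.20 and 9.92 in hepatocyte-like cells, 11.27, 10.98 and 11.03 in adult hepatocytes and 5.46, 6.28, 6.06 and 5.88 in stem cells. Hamp, the gene of the iron hormone hepcidin, read 5.44, 5.44 and 10.54 in hepatocyte-like cells, 13.04, 13.17 and 13.14 in adult hepatocytes and 2.72, 3.54, 3.23 and 3.47 in stem cells. Its rise in hepatocyte-like cells over stem cells was 3.90 ± 0.93 (limma, adjusted p = 0.00622) and 2.20 without replicate 3, and Msx2 lost its call without that replicate (1.42 with it, 0.68 without). Under the 3 other scalings Msx2 was nearly as high, at 1.33, 1.35 and 1.41, but just missed the test (limma, adjusted p = 0.0521, 0.0607 and 0.0512). In adult hepatocytes Hamp rose by 9.87 ± 0.93, Id2 by 5.17 ± 0.23, Smad9 by 2.62 ± 0.23 and Atoh8 by 2.40 ± 0.18. Between the 2 hepatic kinds the list split, with 5 higher in hepatocyte-like cells, led by Bambi (2.57 ± 0.21) and Smad6 (2.19 ± 0.20). The 4 lower were Hamp (-5.97 ± 0.99), Smad9 (-1.84 ± 0.25), Id2 (-1.27 ± 0.25) and Atoh8 (-1.11 ± 0.19). Without hepatocyte-like replicate 3 Hamp was at -7.67 in that comparison. Of the 5, 3 kept the call with cyclic loess. The share of this list that passed was 81.8% in hepatocyte-like against stem cells, 54.5% in adult hepatocytes against stem cells and 81.8% between the 2 hepatic kinds. Over all genes it was 16.0%, 26.6% and 23.0%.

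Of 10 measured targets of Nodal or activin in the early embryo, 1 rose and 1 fell in hepatocyte-like against stem cells, Skil and Foxh1, both also counted above. In adult hepatocytes Foxa2, a factor of endoderm and liver, rose by 2.16 ± 0.24, and Foxh1 and Skil fell. Hepatocyte-like cells had less Foxa2 than adult hepatocytes did (-1.53 ± 0.26, limma, adjusted p = 0.000439), at 7.10, 7.83 and 6.54 against 8.81, 8.77 and 8.48. The share of this list that passed between hepatocyte-like and stem cells, 20.0%, was near the 16.0% of all genes. It was also near that of all genes in adult hepatocytes against stem cells (30% against 26.6%) and between the 2 hepatic kinds (20% against 23.0%).

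**Figure D4:**
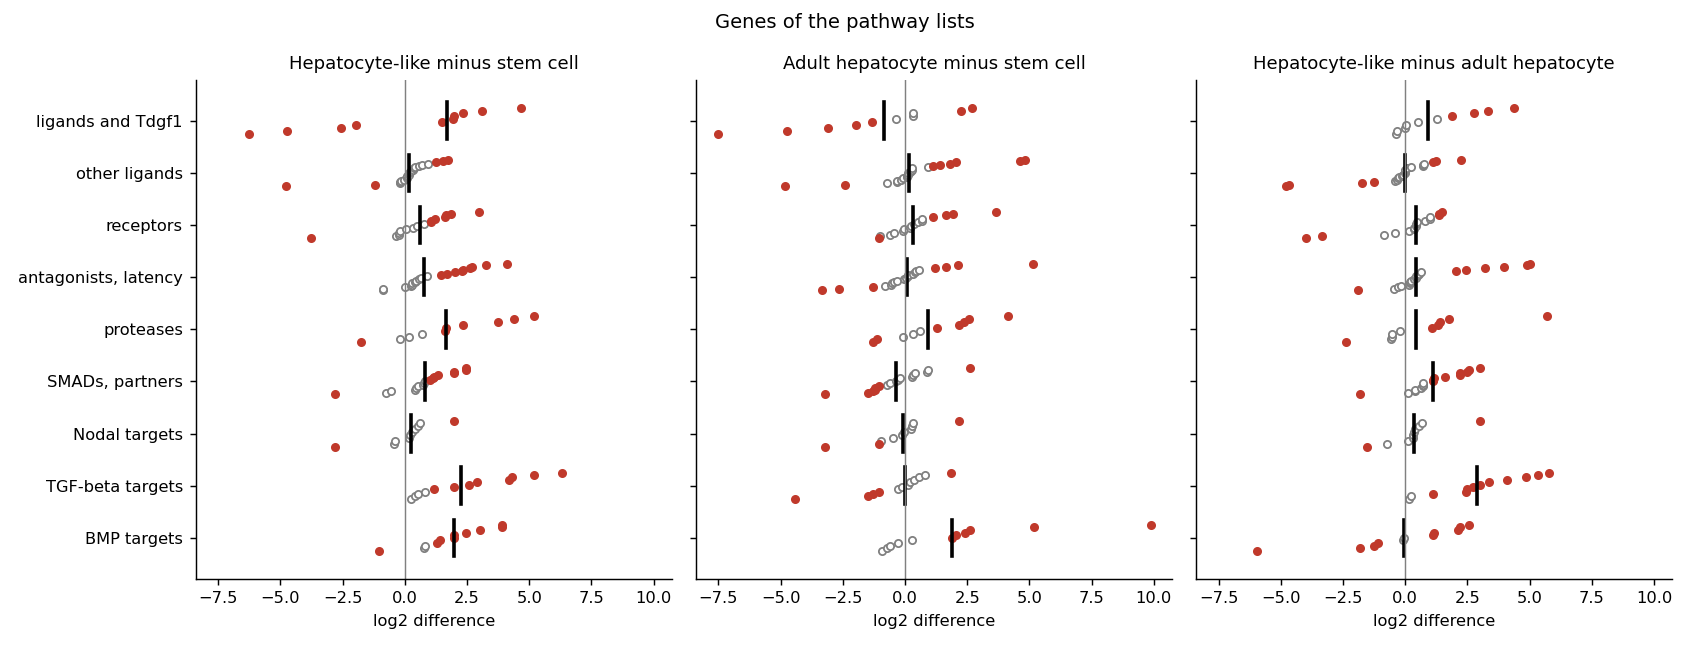
Log2 differences of single genes (1 point each) in 9 lists of the pathway for the 3 comparisons; filled red points passed the test, open grey points did not, and the black bar is the list's median. The TGF-beta targets have no called gene to the left of 0 in either comparison of hepatocyte-like cells, and the BMP targets split between the 2 hepatic kinds.

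For each member the genes with the most similar pattern over the 10 arrays were found by the root mean square distance between log2 values, each gene centred on the mean of its 3 group means. Nearest to Tdgf1 was the pluripotency factor Nanog, at a distance of 0.48, followed by Dppa2 at 0.79. Nearest to Lefty2 were Gtsf1l (0.39), Inpp5d (0.39) and the pluripotency factor Sox2 (0.45), and nearest to Nodal were Wdr62 (0.22), Zfp428 (0.28) and Rfx2 (0.30). Tgfb1 was closest to Samd5 (0.17), to the collagen prolyl hydroxylase gene P4ha2 (0.18) and to Crispld2 (0.20). Tgfb2 was closest to the hyaluronan receptor gene Cd44 (0.22), to Podxl (0.34) and to the integrin gene Itga3 (0.34). Bmp2 was closest to the junction gene Cgnl1 (0.25), and Inhba to the transcription factor gene Maf (0.36). Bmp4 was closest to Ccng1 (0.43). Lefty1 was nearest to Mageb16 (0.28) and Tgfb3 to Rflnb (0.25).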

How the data were processed

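Transcript levels of 10 mouse samples were measured on arrays, with RNA isolated by TRIzol and labelled with biotin per the labels' protocols. The deposited table holds the authors' processed values of 41345 transcript clusters on each array, taken to be log2 from their range. Transcriptome Analysis Console, the oligo package (1.38.0), R (3.3.1) and RMA are listed, without their roles, per the submitters' processing notes. The build behind the clusters is not given in the sources used here, and scanner files were not used here.

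Clusters with exactly 1 symbol (23521) gave 22180 genes, each read from its brightest cluster over the 10 arrays. limma 3.58.1 in R 4.3.3 (lmFit, eBayes, 2-sided) was fitted to all 10 arrays with 3 group means, which leaves 7 residual degrees of freedom and a prior of 5.34, with Benjamini-Hochberg adjustment of p over the 22180 genes. Intervals are 95% and from that fit. The scripts were tested on simulated data. Promoters came from RefSeq (GRCm38.p6).

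The members, the lists, the tests and the naming rule were all chosen with earlier results of these data known. The naming rule covers all members, up to 4 called genes each way per pathway list and comparison, and 3 nearest genes per member. Alternatives covered scaling, dim genes, clusters of a gene, variance, samples fitted, the replicate number, each array left out and thresholds.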

Additional observations from a re-analysis of the deposited data

Results flagged for a closer look

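Among the members and the pathway genes named, 1 array of the 4 stem cell arrays lay far from the other 3 for 2 of 68 genes. Gdf2 read 4.55 in stem cell replicate 2, against 5.1 to 5.21 in the others. Skil read 7.49 in stem cell replicate 1, against 6.51 to 6.65 in the others. Chance alone flags about 1 in 20 such groups. None of the 10 members was among them, and groups of 3 arrays were not examined in this way.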

How the results depend on the processing

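Of 600 recomputed differences of single members, 596 kept their side of the threshold and no called one changed sign (of those not called between the 2 hepatic kinds, Lefty1 ran from -0.34 to 0.32, Lefty2 from -0.32 to 0.29 and Inhba from -0.56 to 0.15), 2 calls were lost (Bmp4 in adult hepatocytes against stem cells, -0.93 with cyclic loess and -1.10 without adult replicate 2) and 2 were gained (Tdgf1 in hepatocyte-like cells against adult hepatocytes, 1.69 and 1.72 without hepatocyte-like replicate 1 or 2). The cause was not tested. With a difference of at least 2 required, 6 members passed between hepatocyte-like and stem cells, and over all genes 1030, 2501 and 2107 passed in hepatocyte-like against stem cells, adult hepatocytes against stem cells and hepatocyte-like against adult cells, where 3540, 5893 and 5106 passed otherwise. With no limit on the difference they became 6390, 9205 and 8003. Leaving out each array in turn gave 10 to 10, 6 to 7 and 4 to 5 members and 3349 to 3719, 5797 to 6010 and 4933 to 5272 genes. With the replicate block 10, 7 and 4 members and 3518, 5926 and 5103 genes were called, and no call of a member changed. The groups share replicate numbers, but same-numbered arrays did not deviate together (correlations of -0.19 to 0.14 between deviations from the group means), so no pairing was established. With 3 or 4 arrays per group this cannot tell whether samples of the same number were prepared together. Scanner files were not used here, so no level could be set against its background, and precision is bounded by 3 or 4 arrays per group.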

Other observations

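Within the stem cells several members differed between arrays. They were picked with the values in view and have no test. Nodal was at 8.71 and 8.74 in stem cell replicates 2 and 4 and at 7.93 and 8.33 in replicates 1 and 3, and Lefty1 was at 8.22 and 8.01 in replicates 2 and 4 and at 6.61 and 7.27 in replicates 1 and 3. Tdgf1 and Bmp4 ran the other way. Tdgf1 was at 10.50 and 10.62 in replicates 2 and 4 and at 11.54 and 11.43 in replicates 1 and 3, and Bmp4 was at 6.84 and 6.73 in replicates 2 and 4 and at 7.59 and 8.27 in replicates 1 and 3. The convertase gene Furin was at 8.37 and 8.28 in replicates 2 and 4 and at 6.89 and 7.24 in replicates 1 and 3. Lefty2 stayed between 9.58 and 9.97 on all 4 arrays.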
